A study of Mus musculus with 15 samples.

Results

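The 2 kb bins with the highest panH3 relative to their chromosome are described here: 500 bins on chromosomes 1 to 19, out of 91425 bins on those chromosomes and 98085 in the deposited table. panH3 is a ChIP with an antibody that binds histone H3 whatever its modification, and its level was taken as the mean of libraries a and b in RPKM (reads in a bin, scaled for the bin's length and for the reads of the library), divided by the median panH3 of the same chromosome. panH3 chose these bins, so their panH3 levels, and any difference of another mark from panH3 in them, are descriptions and not tests: the members were chosen by these values. The lowest member stood at 1.73 times its chromosome's median, the middle one at 1.92 times and the highest at 8.66 times. Of the 500 members, 184 reached 2-fold and 38 reached 3-fold.

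All libraries came from wildtype male TT2 cells, an embryonic stem cell line derived from the inner cell mass of a C57BL/6 x CBA blastocyst, and the ChIP libraries were made without crosslinking. H3K9me3 was profiled in libraries a, b and c of 1000 cells and in 1 library each of 10000, 100000 and 1000000 cells. H3K27me3 was profiled in 1 library each of 1000, 10000 and 100000 cells, and panH3 in libraries a and b of 1000 cells. Levels of RNA come from 1 library of 1000 cells, and H3K4me3 at start sites from 1 library of 100000 cells. Separate cultures are not stated in the labels for libraries with the same number of cells, and the p-values given rest on the spread between libraries alone, which may be technical. The RNA held the markers of embryonic stem cells, with Pou5f1 at 81.4 RPKM, Nanog at 53.6 RPKM and Sox2 at 76.0 RPKM, and the highest of 5 markers of differentiated cells, Gata6, was at 0.49 RPKM. Libraries were made from many cells, so fewer cells with a gene's RNA and less RNA per cell cannot be told apart.

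In native ChIP a nucleosome-free stretch gives few panH3 reads and a densely packed one gives many. The signal also counts copies: where a genome holds more copies of a sequence than the reference assembly shows, reads from all copies pile onto the copy shown, and an extra copy of a chromosome segment raises every library over it. H3K9me3 marks heterochromatin and, in embryonic stem cells, silences many repeated and retroviral sequences. H3K27me3 is placed by Polycomb complexes, mostly over silent developmental genes. Families of near-identical genes, such as rodent zinc finger and Speer genes, are known to be hard to assemble and to assign reads to.

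Promoters of 5 genes touched by members are shown, 4 of them chosen because they share sequence with promoters of other genes. They come from RefSeq on GRCm38.p6, a later build than the mm9 coordinates of the bins, and run from 250 bases before to 50 bases after a start site. Capitals mark every base inside a 36-base word that also occurs, on either strand, in the promoter of another gene. Speer4d and 5031410I06Rik show how alike 2 genes of chromosome 5 are that lie far apart, Gm13152 and Gm15319 are touched by 2 of the 10 highest members, and Setd2, a gene with 5 members, is shown because it has no shared word.

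Speer4d: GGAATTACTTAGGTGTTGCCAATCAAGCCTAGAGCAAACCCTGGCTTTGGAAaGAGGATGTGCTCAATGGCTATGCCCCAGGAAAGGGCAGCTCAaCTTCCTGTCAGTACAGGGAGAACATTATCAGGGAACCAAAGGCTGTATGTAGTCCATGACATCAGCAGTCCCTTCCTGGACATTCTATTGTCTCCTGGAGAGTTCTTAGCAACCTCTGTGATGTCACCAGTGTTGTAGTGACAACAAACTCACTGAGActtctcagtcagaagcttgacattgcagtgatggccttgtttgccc
5031410I06Rik: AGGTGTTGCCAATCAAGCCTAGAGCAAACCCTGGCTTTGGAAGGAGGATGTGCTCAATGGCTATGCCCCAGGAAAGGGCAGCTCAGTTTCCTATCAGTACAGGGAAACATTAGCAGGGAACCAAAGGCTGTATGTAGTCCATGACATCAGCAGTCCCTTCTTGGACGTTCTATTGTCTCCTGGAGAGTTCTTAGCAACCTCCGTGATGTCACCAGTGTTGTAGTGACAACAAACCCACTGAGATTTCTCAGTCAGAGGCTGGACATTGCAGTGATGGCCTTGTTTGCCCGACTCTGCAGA
Gm13152: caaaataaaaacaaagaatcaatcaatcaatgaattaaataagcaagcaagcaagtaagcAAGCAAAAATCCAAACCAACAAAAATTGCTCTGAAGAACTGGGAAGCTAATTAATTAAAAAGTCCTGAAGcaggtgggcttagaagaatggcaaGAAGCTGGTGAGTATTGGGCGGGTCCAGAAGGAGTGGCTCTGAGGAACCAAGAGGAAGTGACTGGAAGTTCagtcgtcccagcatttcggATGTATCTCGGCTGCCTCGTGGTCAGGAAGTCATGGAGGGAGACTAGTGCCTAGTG
Gm15319: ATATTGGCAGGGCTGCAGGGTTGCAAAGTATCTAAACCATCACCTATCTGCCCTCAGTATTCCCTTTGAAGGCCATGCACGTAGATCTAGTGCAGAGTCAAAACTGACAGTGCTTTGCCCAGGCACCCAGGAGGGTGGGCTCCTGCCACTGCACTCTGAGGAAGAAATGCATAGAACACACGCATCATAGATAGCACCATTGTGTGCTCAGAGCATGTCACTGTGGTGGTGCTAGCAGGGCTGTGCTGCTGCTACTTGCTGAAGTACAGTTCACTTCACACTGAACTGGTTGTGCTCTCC
Setd2: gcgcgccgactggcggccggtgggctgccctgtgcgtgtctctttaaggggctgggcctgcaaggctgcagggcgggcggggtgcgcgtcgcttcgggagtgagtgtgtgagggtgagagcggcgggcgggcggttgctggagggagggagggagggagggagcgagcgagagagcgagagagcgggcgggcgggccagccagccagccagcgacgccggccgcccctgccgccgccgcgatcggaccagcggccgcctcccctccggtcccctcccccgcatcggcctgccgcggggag

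Speer4d (chr5:15618849-15619148, plus strand) shared 252 of its 300 bases with the promoters of 22 other genes, and a member lay within 1 kb of its start site. 5031410I06Rik (chr5:26105265-26105564, minus strand) shared all 300 bases, with 23 other genes, 1 of them Speer4d. Laid against each other without gaps, these promoters were identical at 210 of 289 bases, or 72.7%. Speer4d holds a base that 5031410I06Rik lacks, and the bases before it were compared out of register. The share therefore understates how alike the promoters are. Gm13152 (chr4:147492167-147492466, plus strand, now named Zfp982) shared 197 bases with 8 zinc finger genes or relatives. Gm15319 (chr8:20363153-20363452, minus strand) shared all 300 bases, with 4 other genes. Setd2 (chr9:110532347-110532646, plus strand) shared no word. Most touched genes shared no word: of the 124 with a promoter, 19 did, 6 of 69 on distal chromosome 6 and 13 of 55 elsewhere. Promoters were found for 74.7% of the 166 genes touched and for 76.4% of all genes of the table on chromosomes 1 to 19, of which 8.1% shared a word. With so many genes unmatched, a comparison of these shares is void. The words lie in promoters of GRCm38.p6 and say nothing of how reads were placed in the member bins themselves.

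Most of the members, 285 of 500 or 57.0%, lay in the last 30.5 Mb of chromosome 6, which holds 1.22% of the bins on chromosomes 1 to 19. Only 4 other members lay on the rest of that chromosome. The median panH3 was 0.658 RPKM over the 1112 bins of the distal segment and 0.41 RPKM over the 4345 bins before it, a ratio of 1.60. The change was abrupt: 1 Mb windows had a median panH3 of 0.42 RPKM from 118 Mb, 0.628 RPKM from 119 Mb and 0.825 RPKM from 120 Mb, with 0, 13 and 23 members. The window from 121 Mb had 0.65 RPKM and 5 members, and later windows of the segment went as low as 0.5125 RPKM. The limit at 119 Mb (mm9, as all coordinates of bins) was set after these values were seen.

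**Figure D1:**
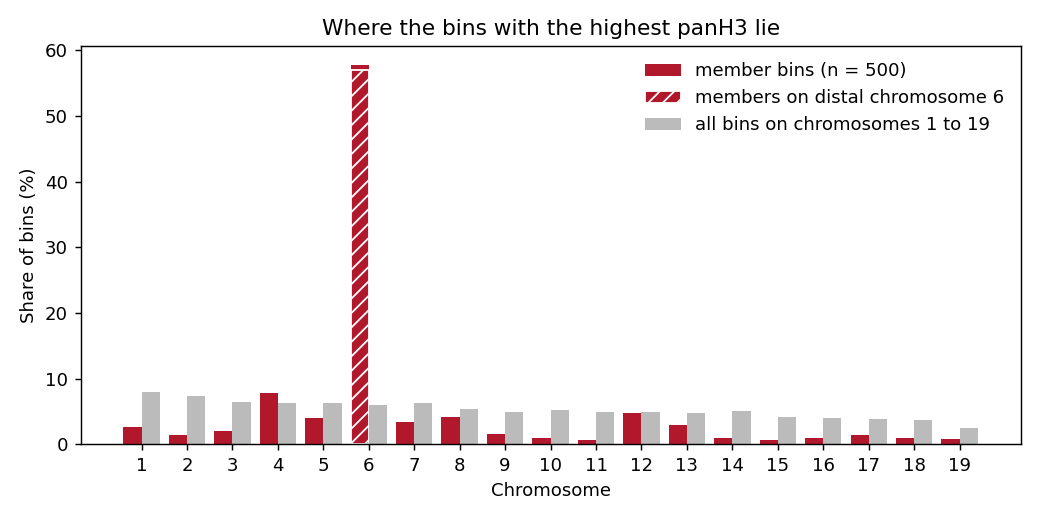
Share of the 500 member bins (red) and of all bins (grey) on each of chromosomes 1 to 19, in percent; hatching marks members on distal chromosome 6. Chromosome 6 holds 57.8% of the members and 5.97% of all bins.

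Libraries that the rule did not use were higher over the distal segment too. Its median H3K9me3 was 1.53 to 1.69 times that of the rest of chromosome 6 in the 6 libraries. Its median H3K27me3 was 1.34 to 1.42 times that of the rest in the 3 libraries. The ratio was 1.60 in panH3 a and 1.65 in panH3 b. All 11 libraries thus had a higher median over the segment as a whole. Just past the step the marks did not rise with panH3. The windows from 119 and 120 Mb had median H3K9me3 of 0.258 and 0.228 RPKM (means over libraries). Their median H3K27me3 was 0.272 and 0.305 RPKM. The window from 118 Mb had 0.378 RPKM of H3K9me3 and 0.49 RPKM of H3K27me3. Both marks were above the window from 118 Mb in the window from 121 Mb, at 0.758 RPKM of H3K9me3 and 0.73 RPKM of H3K27me3. Members in the windows from 119 and 120 Mb touched Erc1, Wnk1, Kdm5a and Cecr2, all with over 1 RPKM of RNA. Over all bins of the segment that touch such genes, median H3K9me3 was 0.23 to 0.4 RPKM in the 6 libraries. Their median H3K27me3 was 0.28 to 0.38 RPKM in the 3 libraries. The part of gene content in the low marks past the step was not tested. Within the segment the members had a median panH3 of 0.82 RPKM in library a and 0.81 RPKM in library b. All bins of the segment had 0.64 and 0.66 RPKM. The lowest of these members stood at 1.13 times the segment's own median. Of the segment's bins, 25.6% were members.

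**Figure D2:**
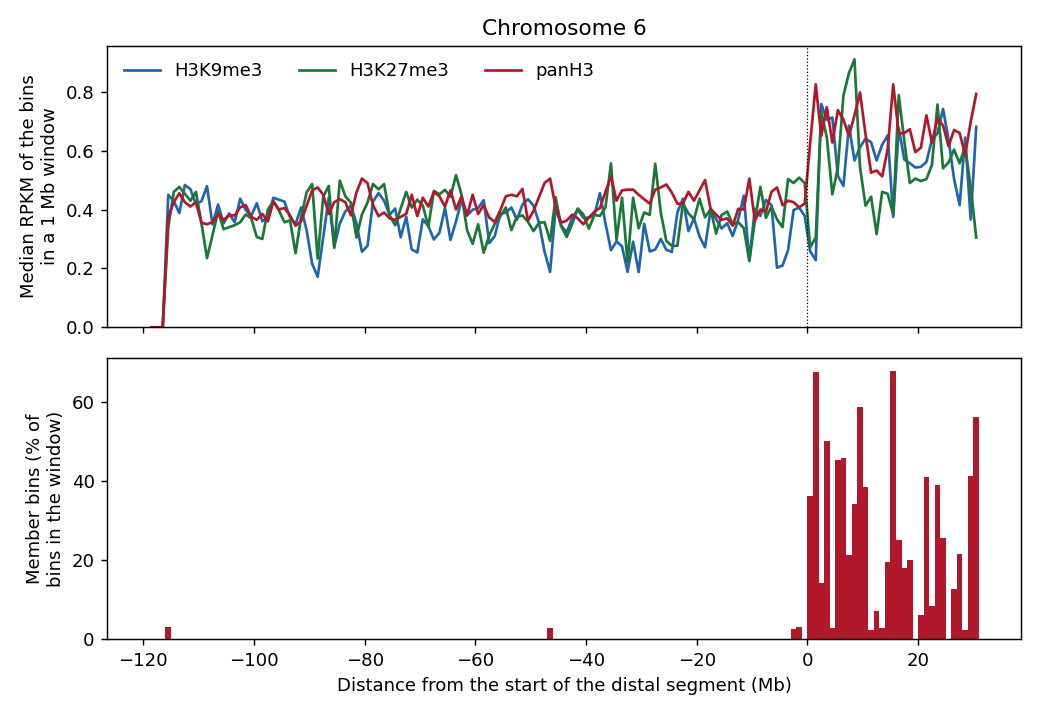
Median RPKM of the bins in 1 Mb windows of chromosome 6 (top) for the mean of the H3K9me3, H3K27me3 and panH3 libraries, and members as a percent of the bins in each window (bottom), against the distance in Mb from the start of the distal segment. All 3 lines stand higher to the right of the dotted line over most windows, and 285 of the 289 members on the chromosome lie there.

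How panH3 is scaled decides this share. Without division by the chromosome's median 11.8% of the 500 highest bins lay in the segment, since chromosomes 1, 8 and 11 had medians of 0.61, 0.60 and 0.63 RPKM and the other autosomes 0.395 to 0.43 RPKM. With division by the median of a 5 Mb window, an alternative chosen after the data were seen, 3.2% lay there. Only 160 of the 500 members were kept under that scaling and 164 without any. The members of distal chromosome 6 are therefore described apart from the 215 members elsewhere.

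The limit of 500 fell among tied bins. The 3 members just inside it, chr6:126260001-126262000, chr6:126340001-126342000 and chr6:126816001-126818000, and the 3 bins just outside it, which start at 128586001, 136858001 and 142476001 on chromosome 6, all stood at 1.73 times the median. In all, 14 bins were tied at that value, and the first 4 along the chromosome were taken. Of the members, 238 were also among the 500 highest of each panH3 library taken alone, 118 of the 285 on distal chromosome 6 and 120 of the 215 elsewhere. Among the 184 members at 2-fold or more the count was 164, or 89.1%.

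The 215 members elsewhere included the highest of all. In 2.2 Mb of chromosome 4, with members from chr4:145026001 to chr4:147146000, 24 of 75 bins were members, although the median panH3 of the 75 bins was 0.195 RPKM, against 0.41 RPKM over the rest of the chromosome. Members there touched Gm13152, Gm13154, Gm13157, Gm13242, Gm13034, 2610305D13Rik and Zfp600. The first of them by level, chr4:146776001-146778000 in Gm13152, had 3.38 and 3.72 RPKM of panH3, the highest scaled value on chromosomes 1 to 19. Its H3K9me3 was 3.05, 3.33 and 3.37 RPKM at 1000 cells, 2.84 RPKM at 10000, 2.59 RPKM at 100000 and 3.31 RPKM at 1000000 cells. Its H3K27me3 was 1.61, 1.60 and 1.98 RPKM at 1000, 10000 and 100000 cells, below every H3K9me3 library. Gm13152 was also listed with 325 RPKM of RNA, and reads of its near-identical relatives may be counted with it.

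In 0.5 Mb of chromosome 5, with members from chr5:14900001 to chr5:15210000, 8 of 12 bins were members, in and around Speer genes, which are named for glutamate-rich proteins of the testis. The median panH3 of these 12 bins was 3.27 times that of the rest of the chromosome. Speer7-ps1, a pseudogene by its name, held a member of the 10 highest, chr5:15204001-15206000, with 2.71 and 2.50 RPKM of panH3. H3K9me3 there lay between 2.30 and 3.53 RPKM in the 6 libraries and H3K27me3 between 2.08 and 2.35 RPKM in the 3. Speer8-ps1 held another, chr5:14950001-14952000, where both marks lay above panH3: H3K9me3 at 2.66 to 3.35 RPKM and H3K27me3 at 2.24 to 2.48 RPKM, against 2.12 and 2.15 RPKM of panH3. All 3 antibodies thus stood high in both of these members, since the median bin of chromosomes 1 to 19 had 0.36 to 0.38 RPKM of either mark and 0.43 RPKM of panH3.

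In 0.2 Mb of chromosome 8, with members from chr8:19802001 to chr8:19998000, 6 of 7 bins were members, with a median panH3 of 3.33 times that of the rest of the chromosome. The bin with the most panH3 in RPKM, chr8:19872001-19874000 in 6820431F20Rik, had 4.29 and 4.57 RPKM of panH3. The deposited transcripts list this gene at more than 1 place on the chromosome. Its H3K9me3 was 1.74, 1.82 and 1.75 RPKM at 1000 cells and its H3K27me3 1.96 RPKM at 1000 cells, both well below panH3. The bin chr8:19996001-19998000, in the same gene and 2610005L07Rik, had 0.81 to 1.11 RPKM of H3K9me3 over 6 libraries and 0.58 to 1.04 RPKM of H3K27me3 over 3, against 2.81 and 2.68 RPKM of panH3. At 1000 cells these 2 bins had the largest shortfall of H3K9me3 from panH3 among the members. No library exceeded 5 RPKM in any bin of the table, so bins above that level, if the genome has any, were not analysed here.

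The bin chr8:19954001-19956000 in Gm15319 split the libraries of 1 mark. H3K9me3 was 3.33 and 2.8 RPKM in libraries b and c of 1000 cells and 2.43 RPKM at 1000000 cells, but 0.06 RPKM in library a, 0.04 RPKM at 10000 cells and 0 RPKM at 100000 cells. H3K27me3 was 0, 0.07 and 0.03 RPKM at 1000, 10000 and 100000 cells, and panH3 3.24 and 2.86 RPKM. The 3 H3K9me3 libraries with signal are those of over 25 M reads (27.16 to 45.52 M, against 13.39 to 20.27 M). The panH3 libraries, both with signal, had 42.02 and 42.16 M reads. The 3 H3K27me3 libraries, all at 0.07 RPKM or below, had 13.03 to 19.66 M. Mark and depth thus cannot be told apart between H3K27me3 and panH3 in this bin. At a minimum of 0.3 RPKM, each of these 3 H3K9me3 libraries was at least 2-fold above each of the other 3 in 9 members, or 1.8%. Over chromosomes 1 to 19 the count was 55 bins, or 0.0602%. The part of this minimum in the counts was not tested. In the other direction the count was 0 members and 11 bins. The 9 members lay on chromosome 1 (6 of them, including both in Sp140, a gene of a nuclear body protein), in Nlgn1 on chromosome 3 (2) and at Gm15319. Depth went with this split, and its part in it was not tested.

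**Figure D3:**
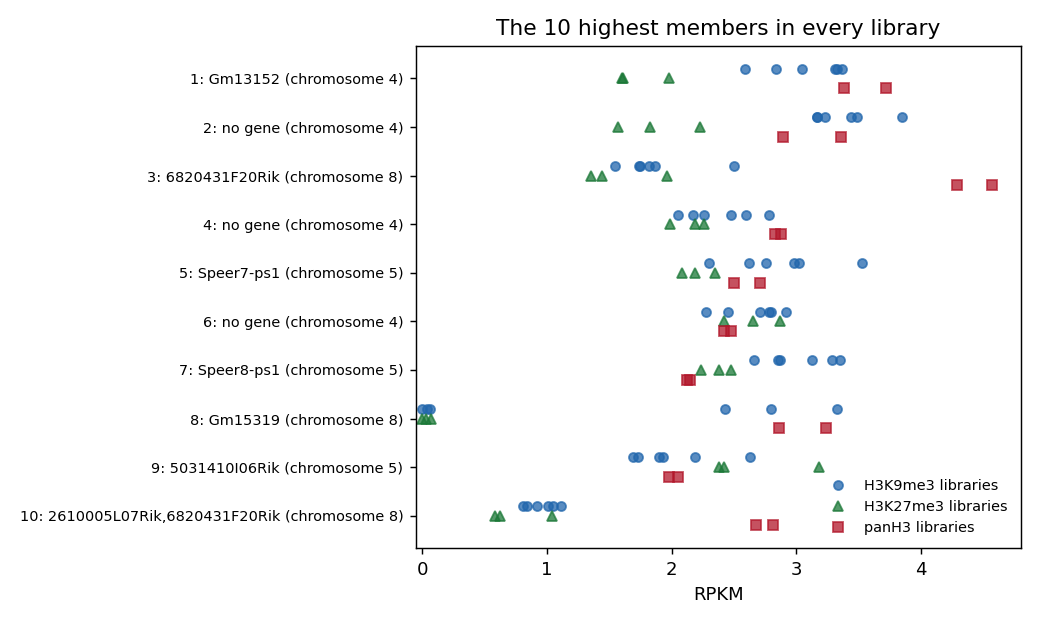
RPKM of each of the 6 H3K9me3, 3 H3K27me3 and 2 panH3 libraries in the 10 members with the highest scaled panH3, from the highest at the top; each point is 1 library. In the Gm15319 bin 3 H3K9me3 libraries lie at 2.43 RPKM or above and the other 3 at 0.06 RPKM or below.

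In 0.3 Mb of chromosome 13, with members from chr13:12856001 to chr13:13060000, 6 of 10 bins were members and none of the 6 touched a gene. The median H3K9me3 of these 10 bins was 0.96 to 1.54 RPKM over 6 libraries and the median H3K27me3 0.485 to 0.765 RPKM over 3, against 0.94 RPKM of panH3. On chromosome 1, 9 of 99 bins were members in 2.7 Mb where the median bin was at 0 RPKM in every library.

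Other clusters elsewhere lay in and around genes with RNA. In 1 Mb of chromosome 12, with members from chr12:87770001 to chr12:88534000, 15 of 38 bins were members, the median panH3 was 1.68 times that of the rest of the chromosome, and the members touched Esrrb, Angel1, Tmem63c, Ngb, Pomt2, Tmed8 and 2310044G17Rik. Esrrb, a transcription factor of pluripotent cells with 73.8 RPKM of RNA, had 2 members in its transcript with 0.23 to 0.43 RPKM of H3K9me3 over 6 libraries, 0.65 to 1.31 RPKM of H3K27me3 over 3 and 0.66 to 0.82 RPKM of panH3 over 2. Setd2, the methyltransferase that places H3K36me3 on transcribed genes, held 5 of its 7 bins as members. At 1000 cells H3K9me3 there averaged 0.0927 RPKM and H3K27me3 0.252 RPKM, against 0.85 RPKM of panH3, and its RNA was 26.3 RPKM. Of these, the 4 in chr9:110440001-110450000 made up 1 of the 2 longest runs of members under 10 kb apart. The other lay at chr6:143154001-143166000, in and beyond Etnk1, an ethanolamine kinase. The next 3 runs, of 3 members each, lay at chr1:87388001-87398000 (no gene), chr4:146976001-146992000 (2610305D13Rik) and chr8:114408001-114414000 (Chst5, a sulfotransferase). Counted this way the members fell into 430 places, 372 of them with a single member.

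Near chromosome ends the counts were small. Within 1 Mb of the first bin above 0 of a chromosome lay 9 members, or 1.80%, against 0.78% of all bins. Within 1 Mb of the last bin lay 23 members, or 4.60%, against 0.83% of all bins, and 18 of the 23 were on distal chromosome 6.

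Of the members, 242 (48.4%) touched a transcript, against 37.7% of all bins, and 170 (34.0%) touched an expressed gene, taken as 1 RPKM of RNA or more, against 23.0% of all bins. On distal chromosome 6 the share touching an expressed gene was 35.4% of members, against 18.8% of all bins of the segment. Elsewhere it was 32.1% of members, against 23.0% of all bins. Bodies of expressed genes thus held more of the members than of the bins in both places, and panH3 itself was higher in them: its median over all bins of expressed genes elsewhere was 0.48 RPKM in library a and 0.47 RPKM in library b, against 0.43 RPKM in both for all bins elsewhere. Within 1 kb of a start site lay 4.21% of the members and 4.23% of the bins on distal chromosome 6, and 4.19% of the members and 3.24% of the bins elsewhere. H3K4me3, the mark of active promoters, had a median of 0.54 RPKM in the 40 members that overlap a start-site window and 0.72 RPKM in 4240 bins of chromosomes 1 to 19 that do.

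Members touched 166 genes, 92 on distal chromosome 6 and 74 elsewhere, and 42 of these were touched by 2 or more members. Wnk1, a kinase that controls ion transport, held 6 members among its 6 bins, as did Etv6 (6 of 12), a repressor of the ETS family, Erc1 (6 of 10), a scaffold protein, and Ano2 (6 of 14), a chloride channel. In the 6 Wnk1 members H3K9me3 averaged 0.121 RPKM and H3K27me3 0.212 RPKM at 1000 cells, against 0.869 RPKM of panH3. In the 6 Ano2 members, whose gene had 0.14 RPKM of RNA, H3K9me3 averaged 0.743 RPKM and H3K27me3 0.915 RPKM, against 0.791 RPKM of panH3. Cecr2 (5 of 5 bins), part of a remodelling complex, and Kdm5a (3 of 3), an H3K4 demethylase, were also touched repeatedly. By level of panH3, the leading genes of this kind were 6820431F20Rik, 2610005L07Rik, Gm13152, Speer7-ps1, Sp140, 5031410I06Rik, Gm13242 and Nlgn1, all of them elsewhere.

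Of the gene families counted, Speer genes were touched by 4 members among their 14 bins (28.6%), natural killer receptor genes (Klr) by 5 of 27 (18.5%), all on distal chromosome 6 in Klrb1a, Klrb1b and Klrb1f, and the Sp100 family by 2 of 5, both in Sp140. Members make up 0.547% of all bins but 25.6% of the bins on distal chromosome 6, where the touched Klr genes lie. The Klr share was not above that of the segment. Predicted genes with Gm symbols were touched by 15 of 459 bins (3.27%) and Rik clones by 17 of 1642 (1.04%). Vomeronasal receptor genes were touched by 3 of 177, all in Vmn2r27 on distal chromosome 6. Zfp genes were touched by 1 of 383 (Zfp600) and Skint genes by 1 of 57 (Skint5). The other families had no member; they had at most 150 bins each, and some had none, so nothing is read from these counts of 0.

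The start site of an expressed gene lay within 1 kb of 10 members. Those of Necap1, a clathrin coat protein, M6pr, a receptor that sorts lysosomal enzymes, Pex26, a peroxisomal protein, Wbp11, a splicing factor, and 9630033F20Rik were on distal chromosome 6. There H3K9me3 at 1000 cells did not exceed 0.63 RPKM, and panH3 lay between 0.65 and 1.09 RPKM. Pisd-ps2, Tmem63c and 6430527G18Rik lay elsewhere, with 0.06 to 0.34 RPKM of H3K9me3 at 1000 cells. Gm13034 on chromosome 4 and St8sia1, a sialyltransferase on distal chromosome 6, stood out among the 10. The Gm13034 bin, chr4:146034001-146036000, had 3.33, 3.09 and 3.65 RPKM of H3K9me3 at 1000 cells and 2.57 RPKM of H3K27me3 at 1000 cells, against 0.88 and 0.91 RPKM of panH3, the largest excess of H3K27me3 over panH3 among the members. The St8sia1 bin, chr6:142910001-142912000, had 0.20, 0.36 and 0.35 RPKM of H3K9me3 and 2.03 RPKM of H3K27me3 at 1000 cells, against 0.84 and 0.83 RPKM of panH3.

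The next comparison is of each mark with panH3 at 1000 cells. RPKM is scaled to the reads of each library. A mark above panH3 thus means that a bin takes a larger share of the mark's reads than of the panH3 reads. Amounts of a mark and of nucleosomes are not compared. Mean H3K9me3 exceeded mean panH3 in 155 members (31.0%), against 42.0% of all bins of chromosomes 1 to 19, and H3K27me3 exceeded it in 23.0% of the 500 members, against 43.0%. Both did so in 63 members (12.6%), against 26.25% of all bins of chromosomes 1 to 19, and neither in 293 (58.6%), against 41.3%. By limma, H3K9me3 was higher than panH3 at an adjusted p under 0.05 in 71 members (14.2%; 15.2% of all bins tested) and lower in 254 (50.8%; 24.7% of all bins tested). H3K27me3 at 1000 cells, with 1 library and no test, was past 2-fold above panH3 in 6 members (1.2%; 2.34% of all bins tested) and past 2-fold below it in 131 (26.2%; 9.30% of all bins tested). The members were chosen by panH3 itself, so nothing is read from these counts. When panH3 a chose the 500 bins and panH3 b was compared, H3K9me3 was above panH3 in 34.0% of them and H3K27me3 in 26.2%. With the libraries exchanged the shares were 30.0% and 26.6%. Over all bins they were 42.2% and 42.7% against b, and 42.4% and 42.5% against a. The panH3 of the same 500 bins was lower in the library that did not choose them, with a median of 0.77 RPKM in both cases, against 0.83 RPKM in a and 0.835 RPKM in b for the bins each had chosen.

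What the members touched went with the marks they held. In the 69 members elsewhere that touch an expressed gene, the median H3K9me3 was 0.20, 0.11 and 0.15 RPKM in libraries a, b and c of 1000 cells and 0.19, 0.22 and 0.31 RPKM at 10000, 100000 and 1000000 cells, and the median H3K27me3 was 0.27, 0.13 and 0.18 RPKM at 1000, 10000 and 100000 cells. Their median panH3 was 0.82 and 0.81 RPKM. These marks were near the medians of all bins that touch expressed genes elsewhere, which were 0.18 to 0.29 RPKM for H3K9me3 and 0.20 to 0.27 RPKM for H3K27me3. In the 127 members elsewhere that touch no gene, the median H3K9me3 was 1.05, 1.22 and 1.22 RPKM at 1000 cells and 1.04, 1.04 and 1.14 RPKM at 10000, 100000 and 1000000 cells, against 0.40 to 0.43 RPKM over all such bins. Their median H3K27me3 was 0.81, 0.75 and 0.74 RPKM at 1000, 10000 and 100000 cells, against 0.39 to 0.42 RPKM over all such bins. Their median panH3, which chose them, was 0.96 and 0.91 RPKM, against 0.42 RPKM in both libraries over all such bins. All 3 antibodies thus stood higher in these members, not H3K9me3 alone. On distal chromosome 6 members without a gene had H3K9me3 medians of 0.60 to 0.66 RPKM, as had all bins without a gene in the segment (0.60 to 0.66 RPKM).

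**Figure D4:**
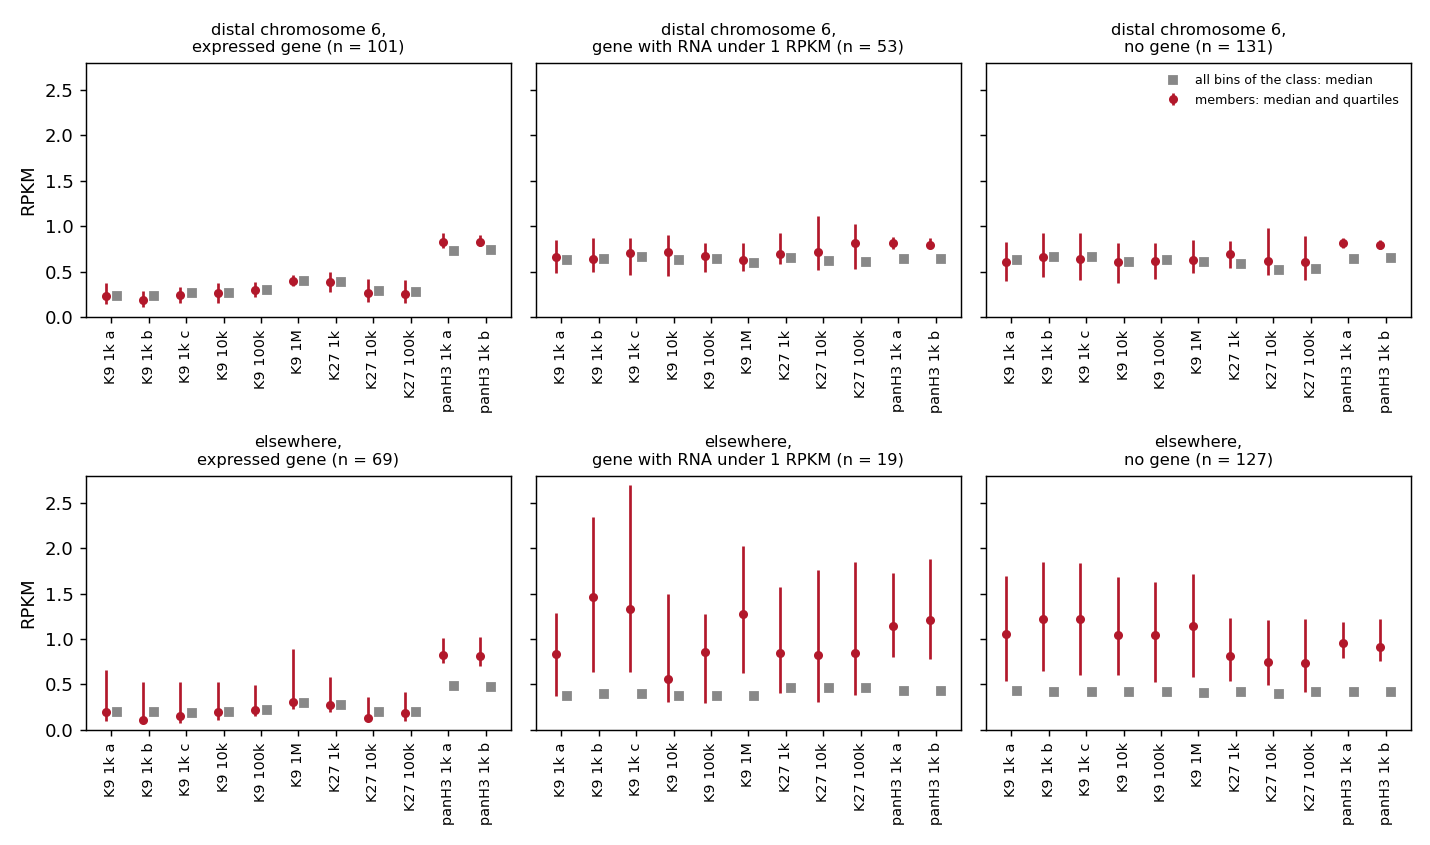
Median and quartiles of the members (red) and median of all bins of the same class (grey) in RPKM, for each library (K9, K27 and panH3, with the number of cells), by place and by what the bin touches. Members elsewhere that touch no gene have H3K9me3 medians of 1.04 RPKM or more, and those in expressed genes 0.31 RPKM or less.

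Among members elsewhere, 40.0% to 49.3% were in the top 5% of bins of an H3K9me3 library, depending on the library, and 24.6% to 34.0% in the top 5% of an H3K27me3 library. On distal chromosome 6 these shares were 10.5% to 15.1% and 14.7% to 15.4%. The top 5% began at 0.87 to 1.01 RPKM of H3K9me3 and 0.88 to 1.05 RPKM of H3K27me3.

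The last comparisons use H3K9me3 and H3K27me3 alone, neither of which chose the members. H3K9me3 and H3K27me3 were compared at 1000, 10000 and 100000 cells, with cell number as a factor, over 5 and 3 libraries. H3K27me3 has 1 library at each cell number, so cell numbers stand in for its replicates. The spread behind these p-values therefore also holds differences between the marks that vary with cell number. By limma, H3K9me3 was higher than H3K27me3 in 100 members (20%; 13.7% of all bins tested), lower in 97 (19.4%; 14.3% of all bins tested) and not called in 303. The median log2 difference was -0.10 in the members and -0.07 over the tested bins of chromosomes 1 to 19. Without the H3K9me3 library of 10000 cells 12% of members were called lower, and without the H3K27me3 library of 10000 cells 11.6%. Members carried more reads than other bins, with a median of 13 to 53 per H3K9me3 library, against 10 to 33 in all bins, and 16 to 21 per H3K27me3 library, against 10 to 14. The part of this in the counts was not tested.

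The balance of the marks was not the same by place, as values with no test between them. Elsewhere 65 members (30.2%) were called higher in H3K9me3 and 31 (14.4%) lower, against 13.4% and 14.8% of the bins tested there. On distal chromosome 6, 35 members (12.3%) were called higher and 66 (23.2%) lower, against 19.5% and 14.2% of the bins tested in the segment. Of the 127 members elsewhere without a gene, 49 (38.6%) were called higher and 20 (15.7%) lower, against 17.4% and 13.5% of such bins. Of the 69 in expressed genes elsewhere, 16 (23.2%) were called higher and 8 (11.6%) lower, against 6.8% and 13.3%.

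**Figure D5:**
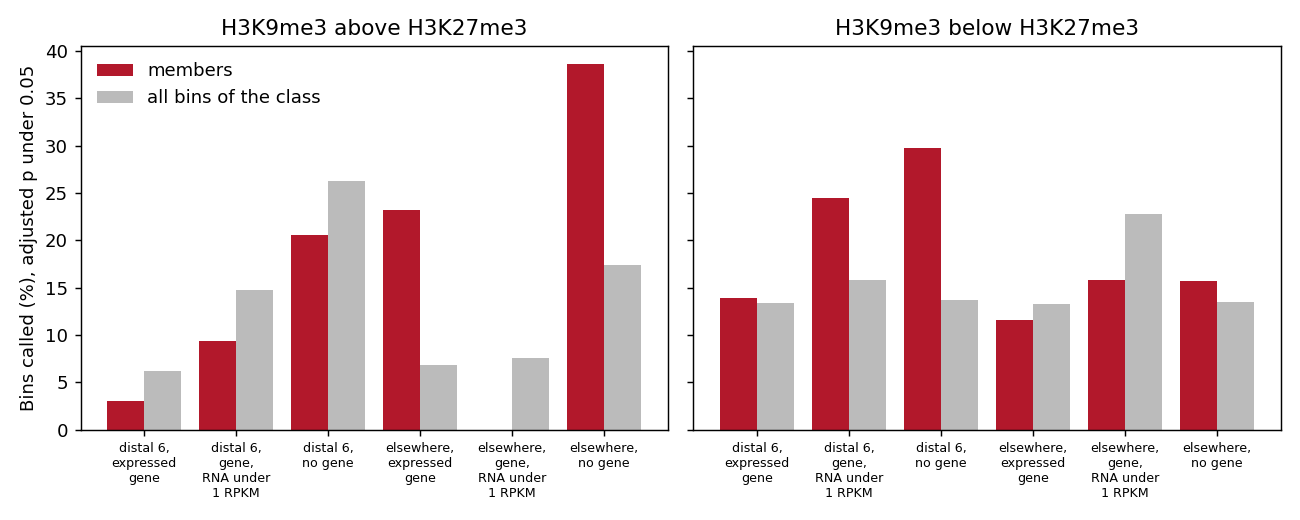
Percent of members (red) and of all bins of the same class (grey) in which limma called H3K9me3 above (left) or below (right) H3K27me3 at an adjusted p under 0.05, by place and by what the bin touches. Members elsewhere without a gene were called above in 38.6%, against 17.4% of such bins.

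The 5 members with the largest excess of H3K9me3 over H3K27me3 were chr13:65612001-65614000, chr6:143162001-143164000, chr3:93640001-93642000, chr13:66382001-66384000 and chr16:98296001-98298000. The first of them, in no gene, had 3.88, 3.19 and 3.31 RPKM of H3K9me3 at 1000 cells, 3.77 RPKM at 10000 and 3.55 RPKM at 100000 cells, and 0.50, 0.36 and 0.38 RPKM of H3K27me3 at 1000, 10000 and 100000 cells. The marks did not overlap, and the log2 difference was 2.81 ± 0.18 (SE; limma, adjusted p = 2.135e-13). The other 4 lay between 2.60 and 2.70 on the log2 scale, with adjusted p between 2.254e-12 and 5.106e-11. Of the 5, only the bin of chromosome 16 touched a gene, A630089N07Rik. All 5 had at least 1.36 RPKM more H3K9me3 than panH3 at 1000 cells, with panH3 between 0.695 and 1.13 RPKM. The other members among the 5 with the most H3K9me3 over panH3 were the Gm13034 bin and chr6:124560001-124562000, with 3.48, 3.32 and 3.66 RPKM of H3K9me3 at 1000 cells, against 0.75 and 1.01 RPKM of panH3.

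The 5 members with the largest excess of H3K27me3 over H3K9me3 were chr8:114412001-114414000 in Chst5, chr6:125162001-125164000, the St8sia1 bin, chr8:114410001-114412000 and chr5:93476001-93478000. The Chst5 bin had 0.66, 0.52 and 0.53 RPKM of H3K9me3 at 1000 cells, 0.52 RPKM at 10000 and 0.49 RPKM at 100000 cells. Its H3K27me3 was 2.65, 3.40 and 3.53 RPKM at 1000, 10000 and 100000 cells, and its panH3 1.08 and 1.02 RPKM. The log2 difference of H3K9me3 from H3K27me3 was -2.34 ± 0.19 (SE; limma, adjusted p = 1.408e-11), with no overlap between the marks. The other 4 lay between -2.16 and -1.73 on the log2 scale. The bin chr6:127108001-127110000 was also among the 5 with the most H3K27me3 over panH3, with 2.23, 3.24 and 2.92 RPKM of H3K27me3 at 1000, 10000 and 100000 cells, against 0.74 and 0.79 RPKM of panH3.

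Of the 10 members with the highest scaled panH3, 2 were called, both with more H3K9me3 (13.7% of all bins tested were called higher and 14.3% lower). They were the Gm13152 bin, at 0.75 ± 0.17 (SE; limma, adjusted p = 0.0006237), and chr4:145028001-145030000, at 0.79 ± 0.16 (SE; limma, adjusted p = 0.0002), both on the log2 scale. In the Gm15319 bin the difference was 1.33 ± 1.57 (SE; limma, adjusted p = 0.614), where the spread between H3K9me3 libraries was larger than the difference. The H3K27me3 libraries, like the H3K9me3 libraries near 0 in that bin, were all of under 25 M reads. The members with the lowest H3K9me3 against panH3, beside those of chromosome 8 already given, were chr8:108608001-108610000 in Nfatc3, a transcription factor of T cells, and chr8:114310001-114312000 in Cfdp1. The Cfdp1 bin had 0.11, 0.10 and 0.07 RPKM of H3K9me3 and 0.12 RPKM of H3K27me3 at 1000 cells, against 1.06 and 1.11 RPKM of panH3. The Nfatc3 bin had 0.26, 0.10 and 0.07 RPKM of H3K9me3 and 0.42 RPKM of H3K27me3 at 1000 cells, against 1.20 and 1.08 RPKM of panH3.

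Whether H3K9me3 in the members moved with the number of cells was asked with a slope on log10 of that number, over 6 libraries. By limma, no slope of a member passed, either up (0 members; 0% of all bins tested) or down (0 members; 0.00107% of all bins tested). Without adjustment of p, 79 members (15.8%) had a positive slope at 0.05, against 5.53% of all bins tested. A negative one was found in 12 members, against 1875 of the 93569 bins tested. On reads recovered from the RPKM steps, limma-voom called 43 members rising, or 8.6%, and 2 falling. Of all bins it called 1771 rising, or 1.89%, and 102 falling. The member with the smallest p, chr6:119946001-119948000 in Wnk1, had 0.03, 0.09 and 0.11 RPKM of H3K9me3 at 1000 cells and 0.19, 0.42 and 0.42 RPKM at 10000, 100000 and 1000000 cells. Its slope was 0.60 ± 0.13 log2 units per 10-fold more cells (SE; limma, adjusted p = 0.289; limma-voom, adjusted p = 0.0176). Its values at 1000 cells lay near the floor: 1 read is worth 0.0285 RPKM in library a, and 0.1 RPKM was added before the log2 for limma. The 1000000 cells are 1 library, also the deepest of the 6 at 45.52 M reads. The part of low values and of depth in the counts of rising members was not tested. The median slope was 0.20 over the 170 members in expressed genes and 0.11 over all such bins tested.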

How the data were processed

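The submitters' processing notes name BWA, SAMtools and mm9. Versions, filters and the treatment of reads with several placements: not given in the sources used here. The authors deposited RPKM values, per the file headers; the panH3 columns carry no unit and were taken as RPKM. 2 columns of another series were not used. RPKM values up to 1 were whole multiples of 1 read at 2 decimals in all cases (100%), which gave depths of 13.03 to 45.52 M reads, 42.02 and 42.16 M for panH3.

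Bins were tested on log2(RPKM + 0.1) with limma 3.58.1 in R 4.3.3 (trend, robust, two-sided, Benjamini-Hochberg threshold 0.05 over all bins above 0 in at least 1 library compared), after a test on simulated data. A gene was touched where a bin overlapped its deposited transcript. Named bins were the extremes of each comparison, the 10 highest by panH3, those at the limit, genes touched repeatedly or at expressed start sites, and the longest runs. The clusters of members were delimited after the values were seen. Members and lists were chosen with earlier results of these data known. Letters a and b were not taken to pair libraries, since the labels do not state a pairing. Deviations of a minus b correlated at -0.00955 between H3K9me3 and panH3. That value cannot show whether libraries of the same letter shared a culture. Alternatives are given in the closing section. Python used numpy 2.4.6, pandas 2.3.3 and matplotlib 3.10.9.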

Additional observations from a re-analysis of the deposited data

How the results depend on the processing

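Of 170 shares of members recomputed under an alternative, 147 were within 1.5 times the value reported, and the 10 bins named for H3K9me3 against H3K27me3 kept their direction and call in all 170 of their recomputed values. Leaving out 1 library at a time, H3K9me3 was higher than panH3 in 10.8% to 18.8% of members and lower in 42.4% to 52.8%; H3K9me3 was higher than H3K27me3 in 15.4% to 20.6% and lower in 11.6% to 18.8%; H3K27me3 was past 2-fold above panH3 in 1.2% to 1.4% and below it in 25.8%; no member was called for the slope. With the letter as a replicate block, H3K9me3 was higher than panH3 in 13.8% of members and lower in 50.2%; neither share moved by over 1.5 times.

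The cause of the moves that follow was not tested. Without division by the chromosome, H3K9me3 was higher than panH3 in 7.8% and higher than H3K27me3 in 11.8%, H3K27me3 was past 2-fold below panH3 in 45.0%, 11.8% lay on distal chromosome 6, 57.8% touched an expressed gene and 2.6% lay at a start site. With 5 Mb windows, chosen after seeing the data, H3K9me3 was higher than panH3 in 25.6% and lower in 30.0%, H3K9me3 was lower than H3K27me3 in 9.8%, and 3.2% lay on distal chromosome 6. Outside distal chromosome 6, also chosen after seeing the data, H3K9me3 was higher than panH3 in 21.9% and higher than H3K27me3 in 30.2%. For the slope, a pseudocount of 1 RPKM called 1.0% rising and limma-voom 8.6% rising and 0.4% falling. H3K27me3 was past 2-fold above panH3 in 0% with a pseudocount of 1 RPKM, 2.8% with the library of 10000 cells and 0.7% of 1000 bins; below it, 0.2% with a pseudocount of 1 RPKM. At 1.5-fold 4.0% were above and 44.4% below. A bin rested on a median of 13 to 70 reads in members, which limits calls of small differences.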
